A study of Homo sapiens with 9 samples.

Results

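LAD1, SYK, BSPRY, FGD3, CLIC5, KDF1, COBL and MIR205HG, 8 genes of epithelial signalling, cytoskeleton and adhesion, were almost without counts when MPZL3 was knocked down in OVCA433 cells. They were selected on their counts, none below 100 in a control library and none above 3 in a knockdown library. Of 58676 genes in the table, 10739 reached 100 counts in every control library, and 34 of these (0.317%) also met the limit in knockdown. The other 26 of the 34 included gene families such as serine proteases and mucins and are used here only for comparison. Because the counts themselves chose the 8 genes, their loss is described below and carries no test.

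OVCA433 is an established cell line from an ovarian serous adenocarcinoma. Cells carried a control shRNA vector, shRNA#1 against MPZL3 (hairpin #1) or shRNA#3 against MPZL3 (hairpin #3), with 3 libraries (A, B and C) in each group. Per the study's methods, the vectors were delivered by lentivirus, transduced cells were selected with puromycin, and the replicates were biological. The methods call the control an empty vector in one place and scrambled in another. MPZL3 encodes a predicted adhesion protein of the immunoglobulin superfamily. Messenger RNA was captured on poly-T beads, made into libraries that do not keep strand, and sequenced to 16850854 to 23890191 counts per library.

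The hairpin target was checked first. MPZL3 had 322, 440 and 440 counts in control libraries A, B and C. It had 40, 39 and 42 counts with hairpin #1 and 33, 18 and 39 with hairpin #3, so the groups did not overlap. The log2 fold change over both hairpins was -3.49 (SE 0.191, edgeR adjusted p = 6.87e-08), and 8.92% of the control level was left. The cells were then checked against their label. KRT7 and PAX8, markers of serous ovarian epithelium, stood at 3431 and 96.99 CPM (counts per 1000000 counts of the library) in control. PAX8 was called higher in knockdown (log2 fold change 1.07) and KRT7 was not called (-0.47). MUC16 averaged 3.18 CPM in control and had no count in knockdown, FOLR1 was below 0.4 CPM in each group, and WT1 had no count in any library. The summed level of 7 epithelial markers was 9130 to 10470 CPM in control and 2712 to 3321 CPM in knockdown. All 7 passed the test as lower, CDH1 after passing the filter on low counts only through control. All 5 tested fibroblast markers of 8 passed as higher. Of these, COL1A2, COL3A1 and PDGFRB passed the filter on low counts only through knockdown, so their calls carry no weight of their own. COL1A1 and LUM were the others (log2 fold changes 4.74 and 1.09), and LUM was not called with hairpin #3 alone (0.66). The 8 markers summed to 18.96 to 23.0 CPM in control and 109.4 to 870.8 CPM in knockdown. DCN was at 0 in every library. The 6 leukocyte markers summed to at most 1.353 CPM in any library, with LYZ at 0. The 3 endothelial markers summed to 0.3981 to 0.6213 CPM in control and 1.495 to 5.846 CPM in knockdown. CDH5 was called higher (log2 fold change 4.86), after passing the filter on low counts only through knockdown. The 5 mesothelial markers summed to 124.3 to 158.5 CPM in control and 94.06 to 197.4 CPM in knockdown, where UPK3B was called lower (-6.49). MSLN and LRRN4 were called higher with hairpin #3 (1.12 and 1.26) but not over both hairpins (0.78 and 1.02). The part of these shifts in the results below was not tested. In bulk libraries, fewer cells that express a gene and less RNA per cell cannot be told apart.

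The 8 genes work at different points of an epithelial cell. SYK is a cytoplasmic tyrosine kinase that docks on phosphorylated receptor tails, best known from B cells and mast cells and also present in epithelia. FGD3 belongs to a family of exchange factors that load the GTPase CDC42 with GTP, and COBL (cordon-bleu) starts new actin filaments. CLIC5 is a chloride intracellular channel family protein that is found with ezrin and actin in microvilli and in the stereocilia of hair cells. LAD1 encodes ladinin-1, a protein of the anchoring filaments that hold epithelium to its basement membrane. BSPRY is a B-box and SPRY domain protein that binds 14-3-3 proteins and the calcium channel TRPV5, and KDF1 (keratinocyte differentiation factor 1) restrains proliferation of epidermal progenitors. MIR205HG is the host transcript of miR-205, a microRNA that targets the repressors ZEB1 and ZEB2.

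The mature products of the MIR205HG locus are shown because the base-pairing seed decides which messages the microRNA can recognise. They lie on chromosome 1 at 209432166 to 209432187 (the 5p arm) and 209432203 to 209432223 (the 3p arm) of GRCh38.p14, plus strand, in RefSeq. Capitals mark the seed, bases 2 to 8.

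hsa-miR-205-5p: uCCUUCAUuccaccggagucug
hsa-miR-205-3p: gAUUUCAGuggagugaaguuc

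Promoter windows are shown for the genes whose window holds the hexamer CACCTG, the E-box core to which ZEB and SNAIL repressors bind. Each window runs from 250 bases before to 50 bases after a RefSeq start (GRCh38.p14), and CACCTG or its reverse complement CAGGTG is in capitals. RefSeq windows were matched by symbol for 7 of the 8 genes, and the window nearest to the start in the count table was used. They lie at chromosome 1, 201399275 to 201399574 (LAD1, minus strand), chromosome 9, 113349291 to 113349590 (BSPRY, plus strand), chromosome 1, 26960419 to 26960718 (KDF1, minus strand) and chromosome 9, 90801569 to 90801868 (SYK, plus strand).

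LAD1: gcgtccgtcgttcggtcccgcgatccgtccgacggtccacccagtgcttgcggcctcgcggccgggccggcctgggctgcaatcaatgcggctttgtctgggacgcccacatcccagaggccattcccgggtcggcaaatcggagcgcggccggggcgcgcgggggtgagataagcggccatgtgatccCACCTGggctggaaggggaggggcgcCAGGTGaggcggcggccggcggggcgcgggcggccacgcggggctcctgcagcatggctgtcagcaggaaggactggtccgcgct
BSPRY: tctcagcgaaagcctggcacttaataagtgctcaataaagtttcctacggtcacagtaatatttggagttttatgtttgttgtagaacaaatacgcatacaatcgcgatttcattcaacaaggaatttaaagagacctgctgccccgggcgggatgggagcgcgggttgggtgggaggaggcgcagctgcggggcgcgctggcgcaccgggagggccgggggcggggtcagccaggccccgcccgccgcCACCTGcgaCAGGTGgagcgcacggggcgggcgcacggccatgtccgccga
KDF1: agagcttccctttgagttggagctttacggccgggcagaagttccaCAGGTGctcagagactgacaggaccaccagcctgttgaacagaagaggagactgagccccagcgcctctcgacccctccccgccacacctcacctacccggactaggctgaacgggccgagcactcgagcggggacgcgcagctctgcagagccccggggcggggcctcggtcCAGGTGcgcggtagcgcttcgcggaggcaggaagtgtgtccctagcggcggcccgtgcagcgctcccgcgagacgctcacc
SYK: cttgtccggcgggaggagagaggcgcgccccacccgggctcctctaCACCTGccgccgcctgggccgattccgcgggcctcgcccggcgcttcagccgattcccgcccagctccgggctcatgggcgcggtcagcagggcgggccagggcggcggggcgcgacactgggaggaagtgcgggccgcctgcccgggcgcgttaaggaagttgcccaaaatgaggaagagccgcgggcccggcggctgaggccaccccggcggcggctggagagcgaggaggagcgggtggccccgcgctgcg

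LAD1, BSPRY and KDF1 each held the hexamer at 2 places, and SYK at 1. In LAD1 the matches began 61 and 35 bases before the start, in BSPRY 1 base before and 8 bases after it, in KDF1 204 and 31 bases before it, and in SYK 204 bases before it. Of 34943 windows in the same RefSeq table, 20.6% held at least 1 match and 3.5% held at least 2. The nearest windows of FGD3, CLIC5 and MIR205HG held none. At their other RefSeq starts, 3 of the 4 windows of FGD3 held 1 match each. The most upstream of the 3 windows of CLIC5 also held 1, 35 bases before the start. In all, 9 of the 14 windows of the 7 genes held at least 1, but 2 of these 9 are overlapping windows of SYK with the same match. The grainyhead core ACCGGT and the AP-1 motif TGANTCA were found in none of the 7 windows (1.82% and 7.72% of all windows), and TATAAA was found only in that of CLIC5 (11.6% of all windows). The nearest windows of LAD1 and BSPRY were rich in CpG, with observed-to-expected ratios of 0.955 and 1.03. Those of CLIC5 and MIR205HG held 1 CpG each, at ratios of 0.0848 and 0.0527, against a median of 0.577 over all windows. These matches describe letters in the windows and do not show binding.

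SYK (ENSG00000165025) spans 90801787 to 90898549 on the plus strand of chromosome 9 in hg38. It had 1006, 971 and 1076 counts in control libraries A, B and C and no count in any of the 6 knockdown libraries. The control level was 49.49 ± 1.69 CPM (SD, n = 3), and the level in knockdown was at least 280.3-fold lower when each knockdown library is given the 3 counts that a count of 0 allows. SYK was the only one of the 8 genes without a single remaining count. In the same control libraries the leukocyte marker PTPRC averaged 0.4541 CPM and the SYK paralog ZAP70 0.1119 CPM.

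FGD3 (ENSG00000127084, chromosome 9, 92947451 to 93036236, plus strand) had 519, 681 and 862 counts in control. One count was left in hairpin #1 library A and 1 in hairpin #3 library B, with 0 in the other 4. FGD3 varied most among the control libraries, at 33.41 ± 8.04 CPM (SD, n = 3), a coefficient of variation of 24.1%. The share of the control level left was 0.0493%, with an exact 95% counting interval of 0.00597% to 0.178%. Counting intervals here cover counting error only.

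COBL (ENSG00000106078, chromosome 7, 51016212 to 51316818, minus strand) had 613, 415 and 507 counts in control, or 24.86 ± 4.55 CPM (SD, n = 3). A single count was left, in hairpin #3 library A, and 0.0331% of the control level (interval 0.000838% to 0.185%). COBL has the longest deposited gene length of the 8 genes, 14349 bases, which is not the length of 1 transcript. Per that length its counts stood for the lowest level.

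CLIC5 (ENSG00000112782, chromosome 6, 45898451 to 46080395, minus strand) had 611, 584 and 592 counts in control, or 28.98 ± 0.652 CPM (SD, n = 3). It kept the most counts of the 8 genes, 5 in all. Hairpin #1 libraries A, B and C held 0, 2 and 2, and hairpin #3 libraries held 0, 0 and 1. This was 0.142% of the control level, with an interval of 0.0461% to 0.333%.

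LAD1 (ENSG00000159166, chromosome 1, 201373244 to 201399915, minus strand) was the most abundant, with 4097, 3882 and 4114 counts in control. The control libraries lay close together, at 196.1 ± 2.64 CPM (SD, n = 3), a coefficient of variation of 1.35%. One count was left, in hairpin #3 library A, and 0 in the other 5 libraries. That was 0.0042% of the control level, with an interval of 0.000106% to 0.0234%.

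BSPRY (ENSG00000119411, chromosome 9, 113349541 to 113371233, plus strand) had 698, 763 and 784 counts in control, or 36.41 ± 2.28 CPM (SD, n = 3). KDF1 (ENSG00000175707, chromosome 1, 26949562 to 26960406, minus strand) had 511, 570 and 572, or 26.82 ± 1.87 CPM. Both had 2 counts left in hairpin #1 library A and 0 in the other 5 knockdown libraries. The shares left were 0.0453% (interval 0.00548% to 0.164%) for BSPRY and 0.0615% (interval 0.00744% to 0.223%) for KDF1.

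MIR205HG (ENSG00000230937, chromosome 1, 209428820 to 209432838, plus strand) had 1022, 1012 and 1271 counts in control, or 53.53 ± 6.26 CPM (SD, n = 3), and 1 count in hairpin #3 library A. The share left was 0.0154% (interval 0.000389% to 0.0857%). MIR205, annotated inside the host transcript, had 5, 11 and 10 counts in control and 0 in all knockdown libraries, too few for the test. Libraries of poly(A) RNA do not measure the mature microRNA, so the sequences shown for miR-205 stand beside the level of its host and not beside a level of their own.

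**Figure D1:**
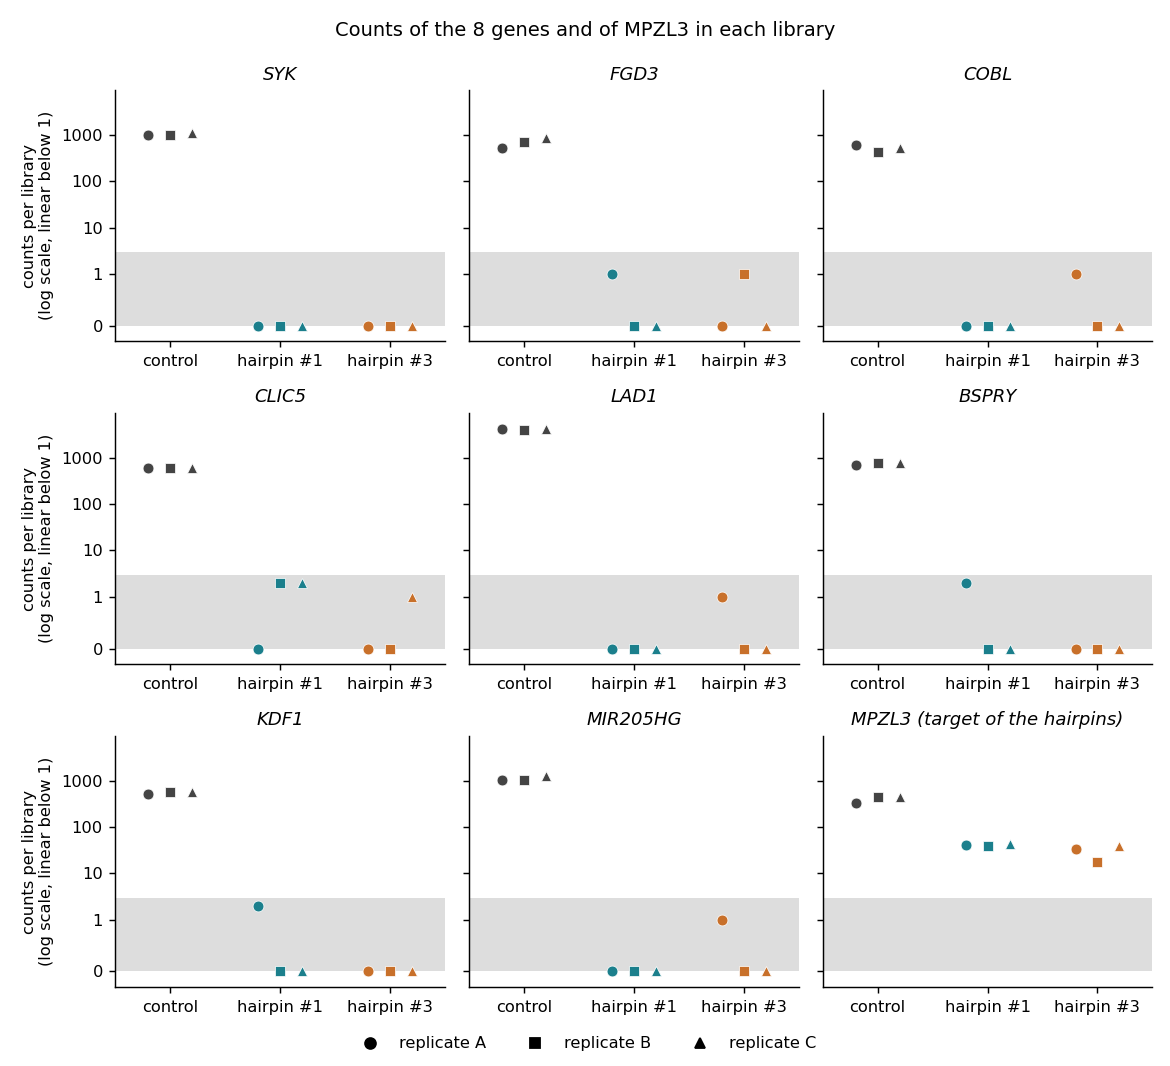
Counts per library (log scale, linear below 1) of the 8 genes and of MPZL3, with 1 symbol per replicate letter. The grey band marks 0 to 3 counts: all 48 knockdown values of the 8 genes sit inside it, 38 of them at 0, whereas MPZL3 stays at 18 to 42 counts.

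Summed over the 8 genes, the 3 control libraries held 9077, 8878 and 9778 counts. Hairpin #1 libraries A, B and C held 5, 2 and 2, and hairpin #3 libraries held 3, 1 and 1. The 14 counts left, against 27733 in control, were 0.0257% of the control level (interval 0.014% to 0.0431%). Without hairpin #1 library A the share was 0.02%. Of the hairpin target itself, 8.92% was left (interval 7.67% to 10.3%).

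Levels between genes were compared per length, as TPM, counts divided by annotated gene length and scaled to a sum of 1000000 in each library. LAD1 stood first in control at 211.4 ± 12.9 TPM (SD, n = 3), in the 95.6th percentile of the tested genes. BSPRY (58.3 TPM), MIR205HG (56.95 TPM) and KDF1 (56.01 TPM) followed, and the ranges of neighbours among these 3 overlapped, so their order was not resolved. SYK came next at 35.62 TPM, then FGD3 at 21.12 TPM, CLIC5 at 12.1 TPM and COBL at 6.54 TPM, each with a range clear of the gene before it. COBL lay in the 34.6th percentile, so the control levels of the set covered a wide range.

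**Figure D2:**
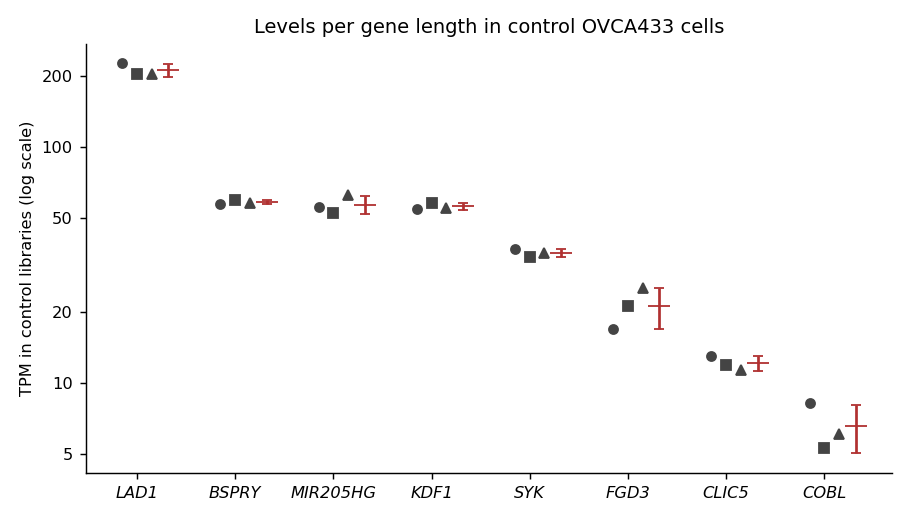
TPM (log scale) of the 8 genes in control libraries A (circles), B (squares) and C (triangles), with the mean and SD in red. LAD1 lies above 200 TPM in all 3 libraries, BSPRY, MIR205HG and KDF1 share one level near 57 TPM, and COBL is lowest at 5.29 to 8.22 TPM.

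The limits of the rule cut through a continuous range. Among the 34 genes, 7 of the 10 with the highest control minimum were members of this set, and the lowest was KLK10, a kallikrein protease, with a control minimum of 119 counts and a knockdown maximum of 3. Just outside, 17 genes had a knockdown maximum of 4 to 6 counts, 7 of them of 4. ESRP1, an epithelial splicing regulator, had 3366 to 3796 counts in control and at most 4 in knockdown. The mucin MUC4 had 1503 to 1856 counts in control and at most 4 in knockdown, and E-cadherin (CDH1) had 5526 to 5802 and at most 6. The lowest control count of any of the 8 genes was 415, well clear of the limit of 100. The highest knockdown count was 2, close to the limit of 3.

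The genes most like each member over the 9 libraries were sought by Pearson correlation of log2 CPM, among genes that averaged 10 CPM or more. As a description, SYK was most like VGLL1 (r = 0.99992), LAD1 (0.9999) and MIR205HG (0.99974). KDF1 was most like BSPRY (0.99999), FGD3 most like MUC20 (0.99906), COBL most like LAD1 (0.99903) and CLIC5 most like SYK (0.99936). BSPRY was most like MUC4 (0.99969), and LAD1 and MIR205HG were each most like SYK (0.9999 and 0.99974). Between 56 and 76 genes had r above 0.99 with a given member. These values rest on the gap between control and knockdown libraries, which all such genes share.

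The partners of the 8 genes were then followed in lists fixed by function, leaving out the 8 genes themselves. Over all lists 121 distinct genes were tested, of which 27 were called lower and 15 higher at an edgeR adjusted p under 0.05 and a log2 fold change of at least 1 in size. These numbers include genes that passed the filter on low counts only through control or only through knockdown, as given below. Across all 15975 genes tested, 7.4% were called lower and 7.26% higher in the same comparison, and the median log2 fold change was 0.0045. The median with genes at 0 set to their lower bound was the same in every list. Hairpin #1 alone called 8.55% lower and 7.76% higher, and hairpin #3 alone 7.83% and 7.46%.

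Partners of SYK moved both ways. Of 17 tested genes 3 were lower and 2 higher, and the list median was -0.10 on the log2 scale. VAV1, an exchange factor that SYK phosphorylates, fell from 34.63 ± 2.48 CPM (SD, n = 3) to 5.345 ± 0.588 with hairpin #1 and 6.152 ± 0.481 with hairpin #3 (log2 fold change -2.59, SE 0.116, edgeR adjusted p = 1.15e-08). The Src-family kinase LYN fell from 49.09 ± 2.53 CPM to 16.65 ± 0.845 and 6.718 ± 1.44, and the phosphatase PTPN6 fell by 1.05 on the log2 scale. PLCG2, the phospholipase downstream of SYK in B cells, rose from 1.603 ± 0.283 CPM to 10.45 ± 0.655 and 7.721 ± 0.659 (edgeR adjusted p = 2.77e-06). CBLB, a ubiquitin ligase that restrains tyrosine kinase signalling, rose by a log2 fold change of 2.07. SRC and YES1 did not pass the test, at log2 fold changes of 0.23 and -0.04. The adaptors BLNK and TYROBP had no count in any library, and FCER1G, LCP2 and BTK were below 0.2 CPM in each group. Without control library A, 5 of the 17 were called lower.

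The FGD family and its relatives split. Of 13 tested genes 3 were lower and 3 higher, and the list median was 0.03 on the log2 scale. All 3 lower genes were FGD paralogs. FGD2 fell from 1.181 ± 0.573 CPM (SD, n = 3) to 0.09217 ± 0.124 and 0.03923 ± 0.068 (log2 fold change -4.04, SE 0.689, edgeR adjusted p = 0.000735). FGD2 passed the filter on low counts only through the control libraries, so its call carries no weight of its own. FGD6 fell from 45.18 ± 1.84 CPM to 17.42 ± 3.39 and 19.3 ± 3.19, and FGD4 from 19.4 ± 2.4 CPM to 10.15 ± 0.981 and 7.186 ± 1.27. FGD1 stood at 33.83 ± 1.18 CPM in control and 51.94 ± 0.358 and 49.09 ± 2.43 in knockdown, a log2 fold change of 0.58 that did not reach the size threshold, and FGD5 was at or near 0. The 3 higher genes were DOCK10 (log2 fold change 5.73), DOCK11 (2.14), both exchange factors of the DOCK family, and ARHGEF6 (2.35). DOCK10 passed the filter only through knockdown, and its call too carries no weight of its own. CDC42 was listed at no more than 0.1964 CPM in any group mean, although dividing cells use it, and it is not read here as a level.

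Of 30 other actin nucleators tested, 1 was lower and 3 higher, beside 7.4% and 7.26% of all tested genes, and the list median was 0.10 on the log2 scale. The formins DAAM2, FMNL3 and FMNL2 rose by log2 fold changes of 3.48, 1.62 and 1.54. DAAM2 went from 0.4043 ± 0.105 CPM (SD, n = 3) to 5.129 ± 1.08 with hairpin #1 and 4.059 ± 0.382 with hairpin #3. Only its knockdown counts carried DAAM2 through the filter on low counts, so its call carries no weight of its own. The 1 lower gene was the formin DAAM1, at -1.03, close to the size threshold and not called lower without control library A or without hairpin #3 library C. COBLL1, the paralog of COBL, stood at 28.9 ± 4.38 CPM in control and 18.46 ± 3.24 and 20.12 ± 2.51 in knockdown (log2 fold change -0.58, below the size threshold). The Arp2/3 subunits ACTR2 and ACTR3 did not pass, at log2 fold changes of 0.24 and 0.01. Without control library A, 5 of the 30 were called higher.

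Relatives and partners of CLIC5 also moved both ways. Of 14 tested genes 3 were lower and 2 higher, and the list median was 0.07 on the log2 scale. Ezrin (EZR), which anchors actin to the membrane beside CLIC5, fell from 941.1 ± 26.6 CPM (SD, n = 3) to 391.6 ± 106 and 389.0 ± 85.8 (log2 fold change -1.27, SE 0.156, edgeR adjusted p = 6.11e-05). The myosin MYO6 fell from 216.2 ± 5.27 CPM to 78.31 ± 4.54 and 61.34 ± 3.04. CLIC4 rose from 289.2 ± 35.7 CPM to 887.6 ± 30.3 and 584.7 ± 94.5 (log2 fold change 1.35, SE 0.202, edgeR adjusted p = 0.00028). CLIC3 fell by 1.13 on the log2 scale, and this call was lost without control library C (-0.80, edgeR adjusted p = 0.101). CLIC1 (0.07) and CLIC2 (0.20) did not pass, and CLIC6 had no count. PTPRQ had no count in control and 65 in the knockdown libraries, at least 3.79-fold higher, and was the other gene called higher. It passed the filter on low counts only through knockdown, so its call carries no weight of its own. Radixin (RDX, -0.07) did not pass, and moesin (MSN), at a log2 fold change of 0.93, stayed below the size threshold.

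Regulators of keratinocyte and surface epithelium differentiation, the setting of KDF1, were lower in most cases. Of 15 tested genes 11 were lower, and the median log2 fold change was -4.31. One of the 11, OVOL1, met the same count rule as the 8 genes, and EHF lay just outside it. OVOL1, GRHL2, EHF, OVOL2 and GRHL3 passed the filter on low counts only through control and are no independent support. The number called lower and the list median include these genes. OVOL1 had 13.07 ± 2.11 CPM (SD, n = 3) in control and 1 count in all 6 knockdown libraries. GRHL2 had 111.8 ± 13.6 CPM in control, no count with hairpin #1 and 0.2489 ± 0.186 CPM with hairpin #3. EHF fell from 56.79 ± 6.14 CPM to 0.1132 ± 0.0995 and 0.01534 ± 0.0266, and OVOL2 from 17.92 ± 1.35 CPM to 0.1105 ± 0.0724 and 0.2832 ± 0.0874. ELF3, GRHL1, GRHL3, KLF4, TFAP2C and SFN were also called lower. TFAP2A, RIPK4, KLF5 and CHUK were not called, at log2 fold changes of 0.35, 0.14, -0.52 and -0.33. TP63, the master regulator of stratified epithelium, was at or near 0 in every group. Without any 1 control or hairpin #3 library, or without hairpin #1 library A, 16 genes were tested and 1 was called higher.

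Anchors to the basement membrane, the setting of LAD1, also included large decreases. Of 11 tested genes 6 were lower and 1 higher, and the list median was -1.48 on the log2 scale. ITGB4, the integrin of hemidesmosomes, fell from 707.7 ± 123 CPM (SD, n = 3) to 47.69 ± 13.9 and 47.69 ± 7.46 (log2 fold change -3.89, SE 0.167, edgeR adjusted p = 8.74e-09). LAMA3, a chain of laminin-332, fell from 413.3 ± 33.9 CPM to 32.99 ± 2.5 and 31.44 ± 3.04 (log2 fold change -3.68). LAMB3, another chain, fell by 1.48 on the log2 scale, and COL17A1 by 1.91. COL7A1, the anchoring fibril collagen, rose from 0.7605 ± 0.332 CPM to 4.574 ± 1.43 and 2.133 ± 0.797. It passed the filter on low counts only through knockdown, so this call carries no weight of its own. ITGA6 (0.27), the partner of ITGB4, and plectin (PLEC, -0.48) were not called.

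Among the 14-3-3 proteins and channel genes linked to BSPRY, 1 of 9 tested was lower, and the median log2 fold change was -0.24. That gene was stratifin (SFN, 14-3-3 sigma), which fell from 296.3 ± 38.6 CPM (SD, n = 3) to 109.2 ± 26.7 and 79.92 ± 14.9 (log2 fold change -1.65, SE 0.188, edgeR adjusted p = 3.32e-05). The other 14-3-3 genes had log2 fold changes between -0.40 (YWHAZ) and 0.19 (YWHAQ) and were not called. TRPV5 had no count in any library. S100A10, which carries TRPV5 and TRPV6 to the membrane, stood at -0.97, and without control library C, or without hairpin #1 library C, 2 of the 9 were called lower.

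Reported targets of miR-205 included 4 higher genes of 14 tested, and the list median was 0.39 on the log2 scale. ZEB2 rose from 2.688 ± 0.613 CPM (SD, n = 3) to 30.7 ± 2.88 with hairpin #1 and 29.48 ± 1.75 with hairpin #3 (log2 fold change 3.48, SE 0.156, edgeR adjusted p = 1.15e-08). ZEB1 rose from 3.919 ± 0.378 CPM to 43.62 ± 4.26 and 39.54 ± 3.83 (log2 fold change 3.40, SE 0.134, edgeR adjusted p = 4.3e-09). LRP1 (1.33) and ITGA5 (1.25) were the others. ERBB3, VEGFA and E2F1 were not called, at log2 fold changes of -0.94, 0.79 and -0.27, and INPPL1 stood at 0.09. Without control library A, or without hairpin #1 library B or C, 1 target was also called lower. Of 8 epithelial microRNA loci in the table, including MIR200C and MIR205, none had enough counts to be tested.

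**Figure D3:**
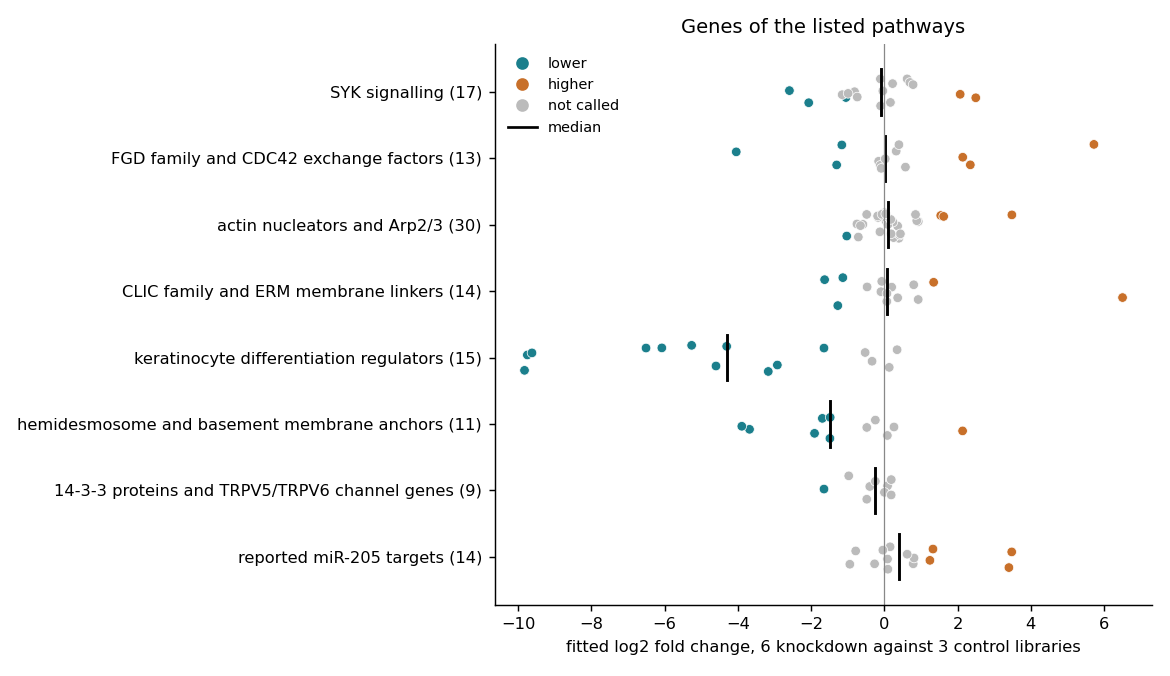
Log2 fold change of each tested gene in the listed pathways (number tested in brackets), 6 knockdown against 3 control libraries, with called genes in colour and the list median as a bar. The keratinocyte regulators (median -4.31) and basement membrane anchors (median -1.48) lie to the left, and the other medians lie between -0.24 and 0.39.

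Genes near the 8 loci were examined next, because the rule did not use them. Within 500 kb of a member, 77 distinct genes were tested, of which 10 (13.0%) were lower, 12 (15.6%) higher and 55 not called. The shares over all tested genes were 7.4% and 7.26%. The 10 lower genes include TNNI1 and RP11-27G14.4, both beside LAD1, which passed the filter on low counts only through control. At least 1 of the 12 higher genes passed it only through knockdown. Leaving out the overlapping genes gave 9 lower and 12 higher of 76. Within 100 kb, 6 of 27 were lower and 1 was higher. TNNI1 and RP11-27G14.4 are among these 6, so the number is not all independent support.

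Among genes that do not overlap a member, TNNI1 beside LAD1 was the closest one called lower. TNNI1, a slow skeletal muscle troponin, lies 3.853 kb upstream on the same strand. It had 53, 80 and 91 counts in control and 0 in all 6 knockdown libraries, at least 20.6-fold lower. It passed the filter on low counts only through the control libraries, so its call carries no weight of its own. RP11-27G14.4, an antisense transcript that begins 0.282 kb inside the LAD1 span, had 24, 53 and 33 counts in control and 0 in knockdown, at least 10.2-fold lower, and it too passed the filter only through control. Without strand in the libraries, its reads and those of LAD1 cannot be told apart. The cardiac troponin gene TNNT2, which overlaps the other end of LAD1, had at most 3 counts in any library. On the far side IGFN1, 144.3 kb away, rose from 2.507 ± 1.91 CPM (SD, n = 3) to 19.82 ± 8.74 and 32.49 ± 11.2, so the loss did not extend over the whole window.

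Around CLIC5, ENPP4 at 49.6 kb fell from 20.3 ± 4.3 CPM (SD, n = 3) to 6.254 ± 2.39 and 5.712 ± 1.05 (log2 fold change -1.76, SE 0.218, edgeR adjusted p = 6.44e-05). ENPP5 at 78.79 kb fell by 2.64 on the log2 scale. On the other side RUNX2, 234.1 kb away, rose from 17.11 ± 2.48 CPM to 63.42 ± 12.4 and 47.42 ± 4.13. RefSeq places a further CLIC5 start upstream of the span in the count table, 174 bases from the start of ENPP4 and on the opposite strand. The small RNA gene RNU6-754P inside CLIC5 had no count.

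The 3 members on chromosome 9 had unlike surroundings. SYK had 1 tested gene within 500 kb, AUH at 315.3 kb, with 241, 240 and 236 counts in control and 181 to 286 in knockdown (log2 fold change 0.09, not called). Between SYK and FGD3, over 2.05 Mb, 14 genes were tested, of which 2 were higher and the others not called. FGD3 lay 22.45 kb from SUSD3, which stood at 4.82 ± 1.91 CPM (SD, n = 3) in control and 12.09 ± 3.55 and 8.755 ± 1.9 in knockdown. Its log2 fold change of 1.11 (edgeR adjusted p = 0.0149) lost the call without control library A (0.82) or without hairpin #1 library C (0.96). ANKRD19P on the other side was not called (-0.41). WNK2, 148.7 kb away, fell by 2.74 on the log2 scale. BSPRY stood between WDR31 (9.243 kb, log2 fold change -0.76) and HDHD3 (2.186 kb, -0.61), both below the size threshold, and of its 16 tested neighbours 4 were higher and the others not called.

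KDF1 was flanked by NUDC at 2.7 kb, with 3285 to 3523 counts in control and 3038 to 4512 in knockdown (log2 fold change 0.16, not called), and by TRNP1 at 33.3 kb (-0.14, not called). Of 21 tested genes within 500 kb of KDF1, 3 were lower: SFN (85.11 kb), FAM46B (44.61 kb, -1.08) and SYTL1 (381.6 kb, -1.02). COBL had GRB10 as its nearest tested gene, at 222.8 kb. GRB10, an adaptor of insulin receptor signalling, rose from 4.579 ± 0.852 CPM (SD, n = 3) to 42.04 ± 2.67 and 46.61 ± 5.35 (log2 fold change 3.27, SE 0.148, edgeR adjusted p = 1.22e-08). An antisense gene that overlaps COBL (ENSG00000228204) had 4, 3 and 4 counts in control and 0 in knockdown, and the pseudogene RPL7L1P2 had none. MIR205HG had LAMB3 as its nearest tested gene at 182.0 kb, from 460.6 ± 48.1 CPM in control to 133.1 ± 27.2 and 197.5 ± 34.9. Between LAD1 and MIR205HG, over 8.03 Mb of chromosome 1, 13 of 79 tested genes were lower and 7 higher.

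**Figure D4:**
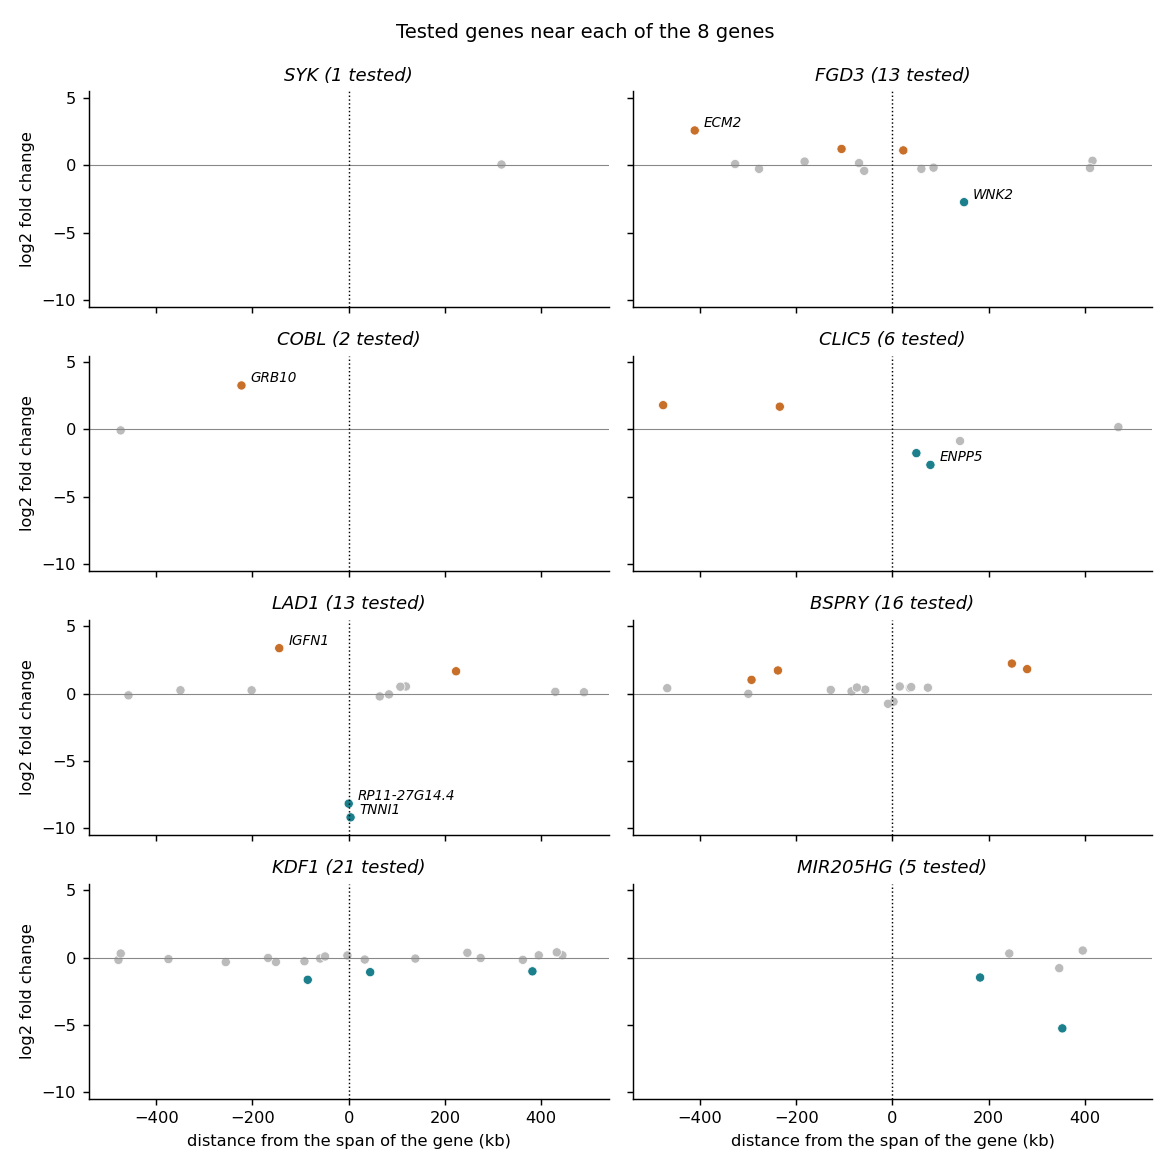
Log2 fold change of tested genes against their distance in kb from the span of each of the 8 genes (dotted line), lower calls in teal, higher calls in orange and others in grey. TNNI1 and RP11-27G14.4 beside LAD1 lie lowest (their fitted values depend on counts of 0), whereas the nearest genes of KDF1 and of BSPRY lie within the thresholds.

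The hairpins were set against each other for all tested genes, of which 3.93% differed (2.22% higher and 1.72% lower with hairpin #3). With 0 to 5 counts left in each, the 8 genes were not compared in this way. Hairpin #1 libraries held 9 of the 14 counts left and hairpin #3 libraries held 5, from unequal depths. Among the 121 list genes and 77 neighbours tested, some of them in both, 10 differed between the hairpins. That number was not tested against the 3.93% over all tested genes. The values of 9 of the 10 are given after the report.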

How the data were processed

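RNA-seq of OVCA433 cells was analysed from the table of gene counts that the authors deposited. Per the submitters' processing notes, reads were aligned with HISAT2 2.0.5 to hg38 and the raw counts made with featureCounts 1.5.0-p3. The deposited table also gives each gene's coordinates and length, and its gene identifiers are all in GENCODE 29. The entries of 95.2% of genes were identical there. Of the 8 genes only the CLIC5 entry was not, so the CLIC5 span, length and distances rest on the deposited entry. Groups came from the sample titles. The 8 genes, the lists and the tests were chosen with earlier results of these data known.

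Counts were tested with edgeR 4.0.16 (R 4.3.3): genes with enough counts by filterByExpr, TMM scaling, the quasi-likelihood test and Benjamini-Hochberg adjustment over 15975 genes, called at adjusted p under 0.05 and a log2 fold change of at least 1 in size. Both hairpins formed 1 arm against control, as in the study. Each hairpin was also tested in a model of 3 groups. CPM used TMM-scaled totals of the tested genes. TPM used the deposited gene lengths. The share left is the scaled knockdown level as a percent of control, with an exact 95% interval. Replicates are taken as biological from the methods. The p-values measure the spread among these libraries. The scripts were tested on simulated data first.

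Genes named were the 8 members, MPZL3, paralogs, nearest tested and overlapping neighbours, at most 4 per list that passed with each hairpin, the 3 genes most like each member and those at the edges of the rule. DAAM1, SRC, ERBB3, WNK2 and other list, marker or neighbour genes named beyond this were chosen after their values were seen. Some genes of the lists are counted but not reported here by name. Alternatives were another scaling or filter, DESeq2 1.42.0 in place of edgeR, a replicate block, a stricter p and leaving out each library.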

Additional observations from a re-analysis of the deposited data

Results flagged for a closer look

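With 3 libraries in a group, no test for a library far from its group was made. The results given here are 9 of the 10 list genes and neighbours whose response differed between the hairpins by a direct test of hairpin #3 against hairpin #1 (edgeR, adjusted over all genes, 3 libraries each). Each value is a log2 difference, positive where hairpin #3 was higher, and no explanation was tested.

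Among partners of SYK, LYN differed by -1.30 (SE 0.144, edgeR adjusted p = 8.13e-05), and PIK3AP1, an adaptor to PI3-kinase, by 1.48. PIK3AP1 had 7.572 ± 0.194 CPM (SD, n = 3) in control, and hairpin #1 gave 3.719 ± 0.706 and hairpin #3 10.45 ± 1.03. Among CDC42 exchange factors, DOCK10 differed by -1.14, with 24.01 ± 5.27 and 10.93 ± 0.897 CPM against 0.326 ± 0.204 in control. Among actin regulators, WASF3 differed by 2.09, with 1.873 ± 0.184 and 7.967 ± 0.602 CPM on either side of 3.795 ± 0.39 in control, and FMNL1 by -1.19, with 21.89 ± 2.99 and 9.577 ± 0.795 CPM on either side of 13.87 ± 1.26. Among regulators of keratinocyte differentiation, TFAP2C differed by -1.44 and RIPK4 by -1.14. GRHL2 had a fitted difference of 5.45, which rests on counts of 0 in all hairpin #1 libraries and on 0.2489 ± 0.186 CPM with hairpin #3, under 1% of its control level. Near FGD3, WNK2 differed by 2.75, with 0.7387 ± 0.256 and 4.957 ± 0.634 CPM against 18.8 ± 0.49 in control.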

How the results depend on the processing

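Of 285 recomputed counts and shares that answer a comparison, 278 stayed within 1.5 times of the reported value, or inside its interval, under the alternatives run. The 7 that moved follow from a wider or narrower definition. The count rule held 72 genes with a control minimum of 30 counts, 18 with 300, 8 with a knockdown maximum of 0 and 64 with 10. All 8 genes described here met each of these except the maximum of 0, which SYK alone met. Of neighbours, 6 of 27 were lower and 1 higher within 100 kb, and 20 of 133 were lower within 1000 kb. The lower ones include TNNI1 and RP11-27G14.4, which were tested only through their control counts. Genes called in knockdown against control were 1832 to 2841 under these alternatives, against 2342. No gene named by rule changed direction under the alternatives run, and among these genes calls were lost for CLIC3 and SUSD3, as given in the report and at an adjusted p under 0.01 (edgeR adjusted p = 0.013 and 0.0149).

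Replicate letters were not established as pairs. Same-letter libraries had correlated deviations from their group means (r = 0.306 to 0.361 for A, 0.0373 to 0.0939 for B, 0.155 to 0.242 for C), but control library B was closer to hairpin #1 library C (0.113) than to hairpin #1 library B. A fit with the replicate block called 2306 genes, and 754 between the hairpins against 628 without it. It left 27 list genes and 10 neighbours lower. Counts of 0 to 5 limit what can be said of the level left in any 1 gene, and the per-gene intervals give that limit.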
